A study of Mus musculus with 18 samples.

Results

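KE + EpEX iPSCs are mouse induced pluripotent stem cells made from embryonic fibroblasts (MEFs) with Klf4, a single reprogramming transcription factor, and EpCAM, an epithelial adhesion protein, together with EpEX, the soluble outer part of EpCAM. The expression profiles of 4 such clones were compared with those of 3 mouse embryonic stem cell (mESC) clones, which are 7 of the 18 arrays of the series. The other arrays were 4 OE + EpEX clones (Oct4 and EpCAM with EpEX), 4 OSKM clones (Oct4, Sox2, Klf4 and c-Myc without EpEX) and 3 MEF samples, and they are used here only beside that comparison. Every probe set that is not an array control was tested, 45037 in all, and a gene symbol was available for 931 of them (2.07%).

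The MEFs came from E13.5 embryos. The labels give every sample, mESCs included, the same strain with a pair of alleles. The (ROSA) 26Sortm1 (rtTA*M2) allele supplies the activator that responds to doxycycline, and B6.129S4-POU5f1tm2Jae/J places GFP at the Oct4 locus. Klf4 and EpCAM were carried on doxycycline-dependent PiggyBac transposons, and doxycycline was given at 1.5 µg/mL for 21 days. The cells were plated on feeder cells, and 250 ng of total RNA per sample was labelled. Each KE + EpEX and mESC sample is 1 clone, and nothing in the labels says that clones came from separate transfections or animals. The p-values below therefore measure the spread between clones only, pooled over the mESC, KE + EpEX, OE + EpEX and OSKM clones.

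Naive mouse pluripotent cells are held in that state by a network of transcription factors around Oct4, Sox2 and Nanog, with Esrrb, Klf and Tfcp2l1 factors that respond to LIF. Fibroblasts that are reprogrammed must silence collagens, proteoglycans and other matrix genes, gain epithelial junctions and switch on that network, and each iPSC clone descends from its own reprogrammed cell. In a bulk RNA sample a lower level can come from fewer cells of a type or from less RNA in each cell, and the pair cannot be told apart.

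The deposited values are log2 signals centred so that the median of the 18 arrays is 0 for every probe set. A value says how a probe set compares between arrays. It cannot be set against another gene and says nothing on detection. The symbols come from the study's lists of probe sets that differed 10-fold or more from the MEF mean in all 15 other arrays, so a named gene is one chosen for its distance from fibroblasts (469 listed higher and 462 listed lower than MEFs). The 15 iPSC and mESC arrays were fitted together, since MEF sample 1 stood apart from the other MEF samples, and a probe set was called at a limma adjusted p under 0.05 with a log2 difference of at least 1, which is 2-fold. On this scale pluripotency markers set the clones apart from fibroblasts, as the choice of listed genes required. Nanog lay at −0.15 to 0.50 in KE + EpEX clones against −9.82 to −9.52 in MEFs, and Dppa5a at 0.00 to 0.14 against −10.15 to −9.22. The transfected Klf4 has no symbol in the lists and was not analysed here. Epcam, also transfected, lay at 0.10, 0.11, 0.28 and −0.36 in KE + EpEX clones 1 to 4 and at −0.53, −0.73 and −0.38 in the mESC clones. That is a difference of 0.58 on the log2 scale (SE 0.144, limma adjusted p = 0.0113), under the 2-fold limit, and every KE + EpEX clone was above every mESC clone. The OSKM clones, made without transfected EpCAM, were also above every mESC clone, at −0.15 to 0.11. The OE + EpEX clones were at 0.09 to 0.53.

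Over all probe sets 3.89% were called between KE + EpEX iPSCs and mESCs, 1.97% higher and 1.92% lower. Among the 931 with a symbol 70 were called, 46 higher and 24 lower in KE + EpEX iPSCs. Of the 469 listed higher than MEFs 11.1% were called, and of the 462 listed lower 3.9%. All 931 are among the 22518 probe sets with the larger spread between arrays, of which 7.95% were called, close to the 7.52% of the named ones. The 70 probe sets name 60 genes, 37 higher and 23 lower, beside 3 probe sets that match several genes and are counted without a name. In 68 of the 70 the clones of both groups did not overlap, which was so in 1658 of the 1754 called probe sets and in 21.6% of all, and the exceptions were Igfbp4 and Col5a2.

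**Figure D1:**
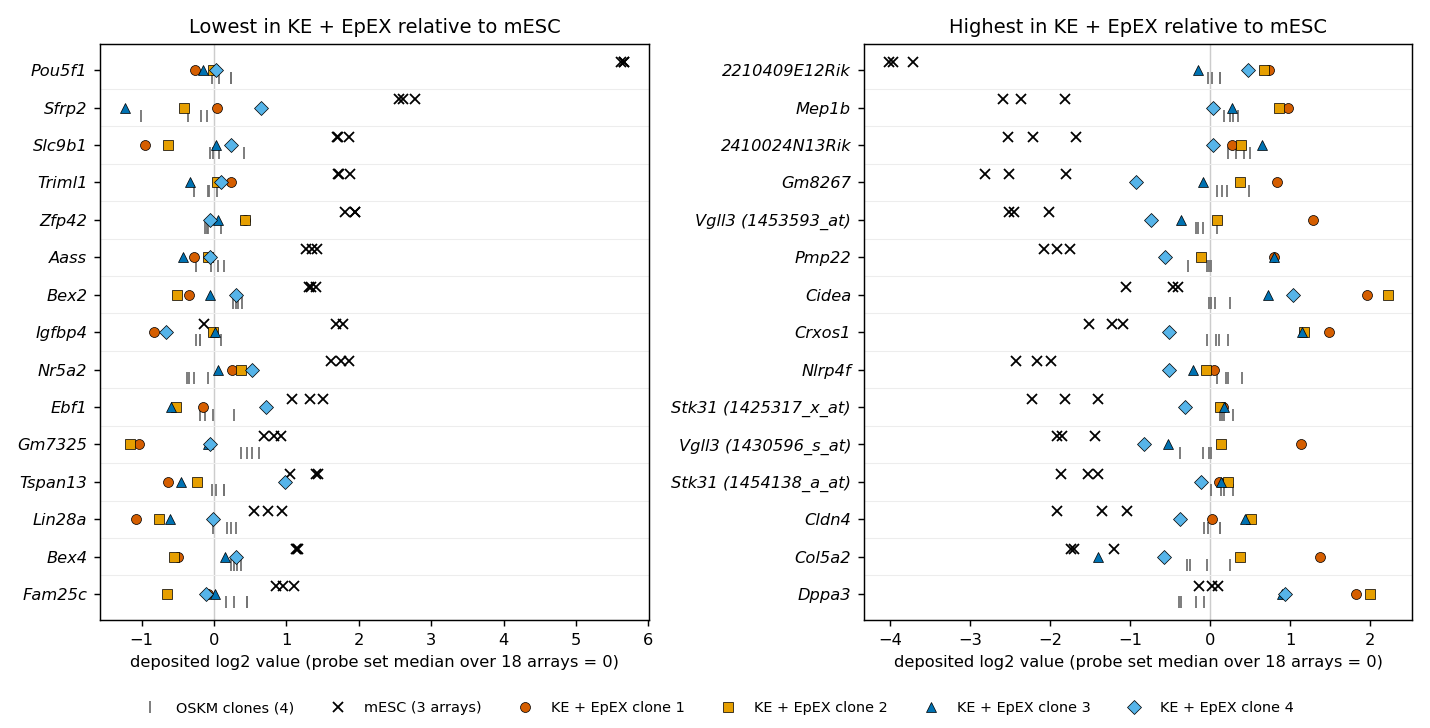
Log2 values (horizontal axis, relative to each probe set's median over 18 arrays) of the 15 called probe sets with a symbol that were furthest below mESCs and the 15 furthest above (rows), with crosses for 3 mESC clones, numbered points for KE + EpEX clones 1 to 4 and bars for 4 OSKM clones. Pou5f1 in mESCs stands at 5.62 to 5.66 and 2210409E12Rik at −4.02 to −3.72, while KE + EpEX clones lie near 0 for both.

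The promoters of Pou5f1, Zfp42, Triml1 and Stk31 are shown as examples of the genes described here, and other named genes had larger differences than the last 3. Pou5f1 fell furthest, Zfp42 and Triml1 are neighbours on chromosome 8 that fell together, and Stk31 is a germline gene that rose at both of its probe sets. Each is 300 bases, from 250 before to 50 after the transcription start, 5′ to 3′ on the gene's strand, from RefSeq on GRCm38.p6. Their positions are chr17:35505782-35506081 on the plus strand for Pou5f1, chr8:43306960-43307259 on the minus strand for Zfp42, chr8:43141437-43141736 on the minus strand for Triml1 and chr6:49395289-49395588 on the plus strand for Stk31. The first start listed for each gene was used. The Triml1 window lies inside the gene's RefSeq span (chr8:43129806-43180494), away from its 5′ end, so it describes an internal start. Capitals mark matches on either strand to the octamer ATGCAAAT, to GGGTGTGG, a word bound by Klf factors, or to the E-box CACGTG.
Pou5f1: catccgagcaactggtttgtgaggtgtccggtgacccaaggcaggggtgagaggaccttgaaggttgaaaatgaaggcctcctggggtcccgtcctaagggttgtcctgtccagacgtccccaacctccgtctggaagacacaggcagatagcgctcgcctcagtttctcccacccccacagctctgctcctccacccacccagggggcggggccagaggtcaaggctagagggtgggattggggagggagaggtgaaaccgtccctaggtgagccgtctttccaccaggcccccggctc
Zfp42: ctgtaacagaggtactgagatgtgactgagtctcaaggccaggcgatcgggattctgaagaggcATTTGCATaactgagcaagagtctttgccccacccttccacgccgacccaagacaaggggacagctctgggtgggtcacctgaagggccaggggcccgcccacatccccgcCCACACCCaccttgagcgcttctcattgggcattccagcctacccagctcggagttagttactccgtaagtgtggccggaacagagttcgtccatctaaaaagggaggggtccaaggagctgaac
Triml1: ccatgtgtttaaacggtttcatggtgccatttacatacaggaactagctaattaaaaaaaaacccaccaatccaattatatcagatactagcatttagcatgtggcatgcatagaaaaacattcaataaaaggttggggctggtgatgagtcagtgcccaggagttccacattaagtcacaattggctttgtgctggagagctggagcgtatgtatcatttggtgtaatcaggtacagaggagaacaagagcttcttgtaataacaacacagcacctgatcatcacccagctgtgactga
Stk31: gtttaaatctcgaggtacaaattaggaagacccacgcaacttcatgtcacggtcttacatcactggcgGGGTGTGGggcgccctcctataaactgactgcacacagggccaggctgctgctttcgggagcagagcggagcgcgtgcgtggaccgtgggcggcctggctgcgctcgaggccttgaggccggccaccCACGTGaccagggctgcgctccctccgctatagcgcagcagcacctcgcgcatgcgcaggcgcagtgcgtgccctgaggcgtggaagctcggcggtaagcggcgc
Zfp42 holds the octamer 186 bases and the Klf word 75 bases before the start, both as the reverse complement, and Stk31 holds the Klf word 182 bases and the E-box 55 bases before it. The Pou5f1 and Triml1 windows hold none of these words. Of the 60 called genes 47 had a promoter in the table, and 5 of them (10.6%) hold the octamer, which is in 1.97% of the 27025 genes of the table (Liph, Pnma5, Sfrp2, Tspan13 and Zfp42). The Klf word is in 5 as well, against 4.09% of genes, and the E-box in 5 against 8.09%. Counted over the table's 32851 promoters the shares are 1.74%, 3.56% and 7.15%. The number of CG dinucleotides, where DNA is methylated, is 11 in Pou5f1, 11 in Zfp42, 2 in Triml1 and 29 in Stk31, and the median promoter has 7. The called genes were drawn from genes chosen for distance from MEFs, and the shares of these words among all named genes were not counted. These are matches of letters in a window and are given as a description.

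Pou5f1, which encodes Oct4, was at 5.62, 5.66 and 5.66 in the mESC clones and at −0.26, −0.02, −0.15 and 0.02 in KE + EpEX clones 1 to 4. The clones of each group were close together and the groups lay far apart. The difference was −5.75 (SE 0.411, limma adjusted p = 2.96e-07), a 53.7-fold lower signal. The SE includes the wide spread of the OE + EpEX clones (SD 1.18), and with only the compared groups in the fit it was 0.101. Pou5f1 has 1 probe set with a symbol, and quantile normalization brought its difference to −3.58 (limma adjusted p = 0.00328). In MEFs it was at −3.27, −3.62 and −4.13, below every KE + EpEX clone. The paper reports Oct4 in KE + EpEX iPSCs as comparable to mESCs by Q-PCR, Western blotting, flow cytometry and immunofluorescence. It also describes methylation of the Oct4 promoter as similar between its iPSCs and ESCs. Why the signal of this 1 probe set differs from those measures was not tested.

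Zfp42, the Rex1 marker of naive cells, had mESC values of 1.95, 1.94 and 1.81 and KE + EpEX values of 0.43, 0.43, 0.05 and −0.05. Triml1, its neighbour, had 1.72, 1.88 and 1.71 against 0.23, 0.04, −0.33 and 0.10. All KE + EpEX clones were at least 1 log2 unit below all mESC clones in both genes. The differences were −1.68 (SE 0.162) and −1.76 (SE 0.166), with limma adjusted p = 5.64e-06 and 4.84e-06. The paper's Q-PCR panel, which included Rex1, was reported at levels equivalent to those of mESCs. The genes lie 114573 bases apart in GRCm38.p6 with 0 protein-coding genes between them.

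Nr5a2, a nuclear receptor that acts on the Oct4 promoter, was the third naive pluripotency gene to fall. It was at 1.75, 1.86 and 1.62 in mESCs and at 0.25, 0.37, 0.05 and 0.52 in KE + EpEX clones, with no overlap. The difference was −1.45 (SE 0.144, limma adjusted p = 8.17e-06). After quantile normalization it was −0.90, under the 2-fold limit.

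Of the 31 genes on the naive list 28 had a symbol, at 37 probe sets. Of these 3 were called lower and 2 higher, beside 4.26% and 6.82% of all 469 listed higher than MEFs. The list's median difference was 0.06 and that of all probe sets −0.02. Among those called higher was Dppa3 (Stella), which protects maternal methylation marks in the early embryo. Dppa3 was at 0.02, −0.14 and 0.10 in mESCs and at 1.82, 2.0, 0.90 and 0.94 in KE + EpEX clones (difference 1.42, SE 0.420, limma adjusted p = 0.0292). Its call was lost in 5 of the 7 fits that left out 1 clone, those without KE + EpEX clone 1 or 2 or any mESC clone, with adjusted p-values from 0.0204 to 0.0877 over the 7.

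The other naive genes did not reach the limits. Nanog, a core factor, was at 0.46, 0.49, −0.15 and 0.50 in KE + EpEX clones and at −0.02, −0.11 and −0.01 in mESCs. Clone 3 lay apart from the other KE + EpEX clones and below the mESC clones, and the difference of 0.37 had a limma adjusted p = 0.0756. Sox2, the usual partner of Oct4, differed by −0.29 (limma adjusted p = 0.194) and Esrrb, an orphan nuclear receptor, by 0.15 (limma adjusted p = 0.362). Tfcp2l1, a LIF target, was at −0.33, −0.42 and −0.40 in mESCs and at 0.80, 0.62, −0.03 and 0.56 in KE + EpEX clones, a difference of 0.87 with limma adjusted p = 0.00921. Klf5, a relative of the transfected factor, had a difference of −0.62 (limma adjusted p = 0.00524). Dnmt3l, a cofactor of DNA methylation, ranged widely among KE + EpEX clones, with 1.40 in clone 3 and −0.64 to −0.20 in the others, and its mean difference was 0.07. It was at −0.17 to 0.04 in mESC clones and at 1.18 to 1.33 in OSKM clones. OE + EpEX clones 1 to 4 were at 1.14, 0.82, 0.79 and −0.06.

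**Figure D2:**
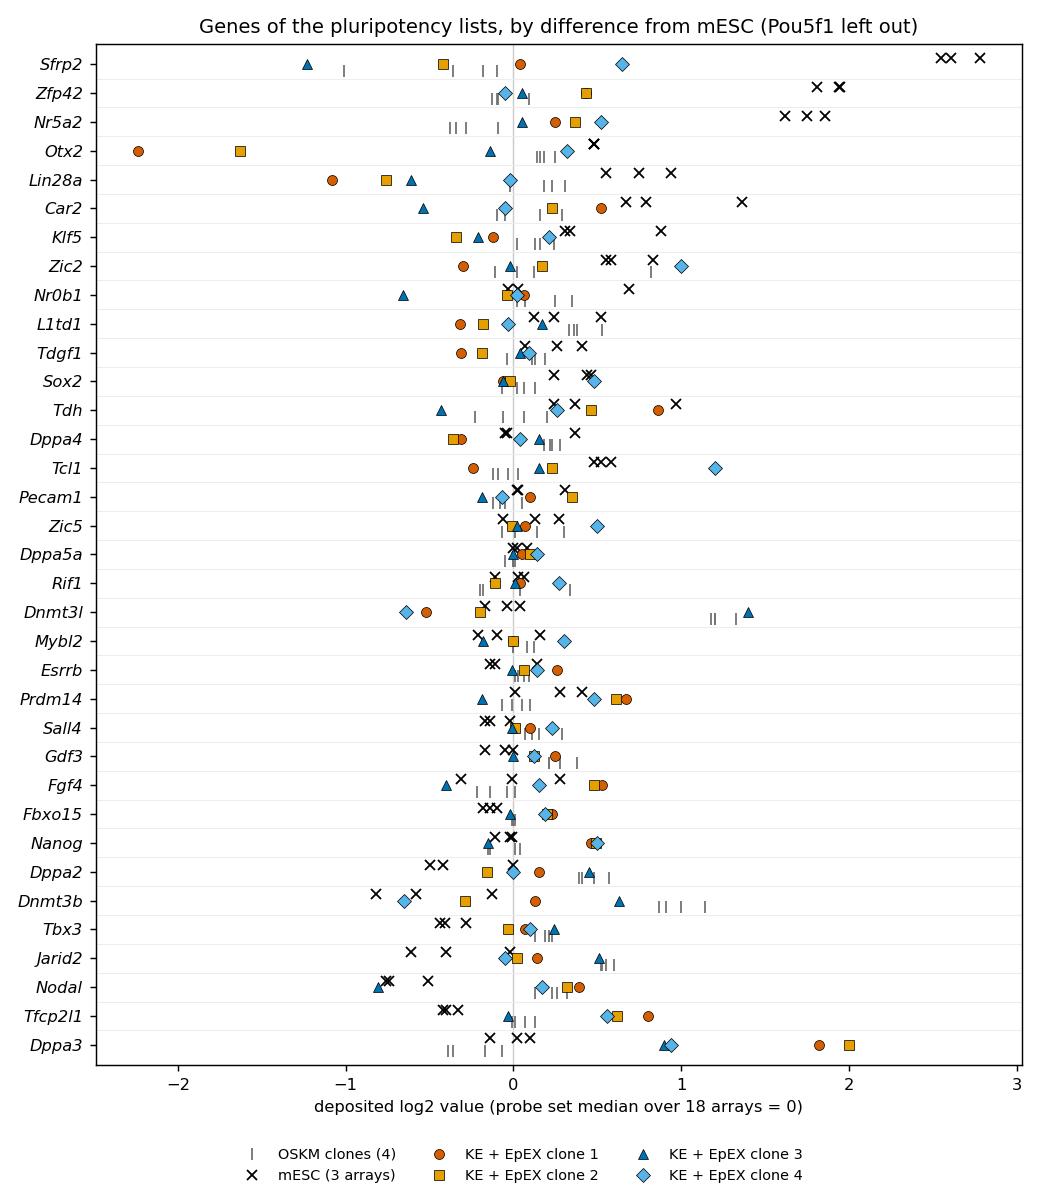
Log2 values (horizontal axis, relative to each probe set's median over 18 arrays) of 35 genes of the pluripotency lists (rows, with Pou5f1 left out for its range), with crosses for mESC clones, numbered points for KE + EpEX clones 1 to 4 and bars for OSKM clones. Most genes have overlapping groups, while Zfp42 and Nr5a2 show mESC clones at 1.62 or higher and Otx2 shows KE + EpEX clones 1 and 2 at −1.63 or lower.

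Genes of the formative and primed states, which pluripotent cells enter as they leave the naive state, had a median difference of −0.44 over 13 probe sets of the 9 genes with a symbol, beside −0.02 for all probe sets. Sfrp2, a secreted modulator of Wnt signalling, and Lin28a, an RNA-binding protein that blocks let-7 maturation, were called lower and none was called higher. The genes not called went both ways. Nodal was higher by 0.69 and 0.61 and Dnmt3b by 0.52 and 0.47 at their probe sets. Zic5 differed by 0.01 and 0.03, Zic2 by −0.44 and Car2 by −0.90. Sfrp2 was at 2.78, 2.55 and 2.61 in mESCs and at 0.04, −0.42, −1.23 and 0.65 in KE + EpEX clones (difference −2.89, SE 0.314, limma adjusted p = 1.81e-05). The groups did not overlap, though the KE + EpEX clones spanned 1.88. Sfrp2 was at 8.56 and 8.55 in MEF samples 2 and 3 and at 1.55, below every mESC clone, in MEF sample 1, and it is among the genes listed lower than MEFs. Lin28a was at 0.75, 0.94 and 0.55 in mESCs and at −1.08, −0.76, −0.61 and −0.02 in KE + EpEX clones (difference −1.37, SE 0.253, limma adjusted p = 0.00155).

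Otx2 varied widely among the KE + EpEX clones. Otx2, which drives exit from the naive state, was at 0.48 in each mESC clone and at −2.24, −1.63, −0.14 and 0.32 in KE + EpEX clones 1 to 4. Clones 1 and 2 lay far below every mESC clone, while clones 3 and 4 were closer to them. The mean difference of −1.41 did not pass (limma adjusted p = 0.114).

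The largest called rise of a named gene was that of 2210409E12Rik, a transcript named by its cDNA clone only. It was at −4.02, −3.72 and −3.97 in mESCs and at 0.74, 0.67, −0.15 and 0.47 in KE + EpEX clones (difference 4.33, SE 0.203, limma adjusted p = 3.60e-09), a 20.2-fold higher signal. Mep1b, a subunit of the metalloprotease meprin, followed with −2.36, −1.81 and −2.59 against 0.97, 0.86, 0.27 and 0.04 (difference 2.79, SE 0.283, limma adjusted p = 9.42e-06). In both genes every KE + EpEX clone was above every mESC clone. The predicted genes 2410024N13Rik (difference 2.48) and Gm8267 (2.43) came next, with limma adjusted p = 1.58e-06 and 0.00371.

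Nlrp4f, of the Nlrp family expressed in oocytes, was at −2.16, −1.99 and −2.43 in mESCs and at 0.05, −0.05, −0.21 and −0.51 in KE + EpEX clones (difference 2.02, SE 0.149, limma adjusted p = 3.84e-07). Crxos1, a homeobox gene of the early embryo, had −1.09, −1.51 and −1.23 against 1.49, 1.18, 1.15 and −0.51 (difference 2.10, limma adjusted p = 0.00358), and clone 4 was far below the other 3 clones. Cidea, a lipid droplet protein, had −0.46, −1.05 and −0.40 against 1.96, 2.22, 0.73 and 1.04 (difference 2.12, limma adjusted p = 0.00242). Clones 1 and 2 were the highest for Cidea, as they were for Dppa3.

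Among germline genes, 13 of 35 on the list had a symbol, at 16 probe sets, and Stk31 and Rhox5 were called higher while none was called lower. Of all 469 probe sets listed higher than MEFs 6.82% were called higher and 4.26% lower. The germline list's median difference was 0.02. Stk31, a kinase-like protein of male germ cells, was at −1.82, −1.40 and −2.23 in mESCs and at 0.16, 0.13, 0.18 and −0.31 in KE + EpEX clones at the probe set with the larger spread (difference 1.85, SE 0.231, limma adjusted p = 6.17e-05), and its second probe set gave 1.69. Rhox5, an X-linked homeobox gene, had −1.26, −1.14 and −1.39 against −0.05, 0.01, 0.11 and −0.27 (difference 1.22, SE 0.0962, limma adjusted p = 7.81e-07). Clone 3 was the highest KE + EpEX clone for several germline genes that were not called, such as Sycp3 of the synaptonemal complex (1.31 against −0.10 to 0.12 in the other clones) and Dazl, a germ cell RNA-binding protein (0.74 against −0.45 to 0.10). Over the list, 13 of 16 probe sets in clone 3 were above the mESC range, as against 5 or 6 in each of the other clones. The list's median level was 0.31 in clone 3, −0.12 to −0.03 in the other KE + EpEX clones and −0.03 to 0.09 in mESCs. It was 0.12 to 0.29 in OSKM clones, near clone 3, and −0.07 to 0.12 in OE + EpEX clones. Of the 469 probe sets listed higher than MEFs 31.6%, 35.4%, 40.3% and 44.3% were above that range in clones 1 to 4, and of all probe sets 29.8%, 28.3%, 28.8% and 26.2%.

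The remaining genes that fell furthest were mostly little-studied or had roles outside pluripotency. Slc9b1, a sodium/hydrogen exchanger of sperm, was at 1.71, 1.87 and 1.70 in mESCs and at −0.95, −0.64, 0.02 and 0.24 in KE + EpEX clones (difference −2.09, SE 0.271, limma adjusted p = 8.56e-05). Bex2 and Bex4, small X-linked proteins encoded 70760 bases apart with 0 protein-coding genes between them, fell by 1.50 and 1.30 on the log2 scale (limma adjusted p = 1.52e-05 and 0.000175). Clones 1 and 2 were below clones 3 and 4 in both, at −0.34, −0.51, −0.05 and 0.31 for Bex2 and −0.50, −0.55, 0.15 and 0.31 for Bex4. Aass, an enzyme of lysine breakdown, fell by 1.56 (limma adjusted p = 1.09e-05) and Ebf1, a factor of B cell and stromal development, by 1.44 (limma adjusted p = 0.000741) at 1 of its 3 probe sets, with differences as small as −0.46 at the others, which were not called. Igfbp4, which binds insulin-like growth factors, was at 1.78, −0.14 and 1.68 in mESCs and at −0.83, −0.02, 0.01 and −0.67 in KE + EpEX clones (difference −1.48, limma adjusted p = 0.0157) at the only 1 of its 3 probe sets that was called. mESC clone 2 lay among the KE + EpEX clones, and the call was lost without mESC clone 1 and without mESC clone 3.

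By position, 59 of the 60 called genes could be placed in RefSeq. The X chromosome held 5 of them (8.47%), as against 40 of the 682 named genes that could be placed (5.87%). Rhox13, named here only as a neighbour, was lower by 1.04 on the log2 scale (limma adjusted p = 0.000989, and under the 2-fold limit without KE + EpEX clone 2 or clone 4), while Rhox5, 311962 bases away with 9 protein-coding genes between, was higher.

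Epithelial genes had a median difference of 0.31 over 11 probe sets of 8 genes with a symbol out of 35, with 1 called higher and 0 lower. The shares of all 469 listed higher than MEFs were 6.82% and 4.26%. Cldn4, a tight junction protein, was at −1.35, −1.92 and −1.04 in mESCs and at 0.03, 0.51, 0.44 and −0.38 in KE + EpEX clones (difference 1.59, SE 0.230, limma adjusted p = 0.000225). Dsg2, a desmosomal cadherin, had differences of 0.55 to 0.58 at its 3 probe sets, with limma adjusted p-values from 0.000318 to 0.000545, under the 2-fold limit. Other genes of the list went the other way without a call. Dsp differed by −0.83, Pkp2 by −0.58 and Spint2 by −0.35 and −0.32, while Spint1 was higher by 0.31. Cdh1 (E-cadherin) had −0.40 (limma adjusted p = 0.0696), and clone 4, at −0.42, was below the other clones, which lay at 0.10 to 0.19. For the receptors and other signalling genes that the study discusses, 7 of 26 had a symbol. Pdgfra, a receptor of platelet-derived growth factor, was at 0.75, 0.59 and 0.11 in mESCs and at −0.55, −0.62, −1.40 and 0.11 in KE + EpEX clones (difference −1.10, SE 0.277, limma adjusted p = 0.0120), and it was lost without KE + EpEX clone 3 and without mESC clone 1. Egfr had a difference of 0.70 that did not pass (limma adjusted p = 0.160), with 1.14 in clone 1 and −0.57 in clone 4.

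Among the named genes, the KE + EpEX clones disagreed most in those of fibroblasts. The fibroblast list had 35 probe sets of 22 genes with a symbol out of 43. Their median difference between group means was 0.65, beside 0.21 for all probe sets listed lower than MEFs and −0.02 for all probe sets. Of the 35, 3 were called higher and 1 lower, beside 3.03% and 0.866% of all 462 listed lower. The lower one was Pdgfra, given above, and Pdgfrb differed by −0.77 without a call (limma adjusted p = 0.418). The median distance from the mESC mean was 1.81 in clone 1, 1.11 in clone 2, −0.18 in clone 3 and 0.00 in clone 4, and 34, 31, 9 and 12 of the 35 probe sets were above the range of the mESC clones. That was so of 77.7%, 60.2%, 22.3% and 27.5% of all 462 probe sets listed lower than MEFs. The median level of the list was 1.38, 0.49, −0.57 and −0.53 in clones 1 to 4 and −0.72 to −0.47 in mESCs, as against 4.91 to 5.84 in MEFs and −0.32 to −0.05 in OSKM clones. In OE + EpEX clones 1 to 4 it was 0.07, −0.01, 0.19 and 0.89. Mesenchymal regulators and adhesion genes had the same order, with median levels of 0.72, 0.31, −0.38 and −0.31 in the clones, −0.41 to −0.19 in mESCs and 4.33 to 6.15 in MEFs, and 0 of their 14 probe sets were called.

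Col6a3, a chain of type VI collagen, was called in every fit that left out 1 clone. It was at −1.57, −1.69 and −0.99 in mESCs and at 0.32, −0.04, −0.43 and −0.23 in KE + EpEX clones (difference 1.32, SE 0.197, limma adjusted p = 0.000289). Col5a2, of type V collagen, had −1.74, −1.70 and −1.20 against 1.38, 0.37, −1.40 and −0.58, so that clone 3 lay within the mESC range (difference 1.49, limma adjusted p = 0.0329). The call was lost without KE + EpEX clone 1 or 2 and without any mESC clone, with adjusted p-values up to 0.113. Serpinf1, a secreted anti-angiogenic protein, had −1.30, −1.36 and −1.45 against 0.83, 0.05, −1.16 and −0.05 (difference 1.29, limma adjusted p = 0.00720), and its call was lost without KE + EpEX clone 1. Its second probe set, with a difference of 0.89, was not called. Vgll3 and Pmp22 are listed lower than MEFs but are not on the fibroblast list. Vgll3, a cofactor of TEAD factors, was called at both of its probe sets, with −2.45, −2.02 and −2.51 against 1.29, 0.09, −0.36 and −0.74 at the first (difference 2.40, limma adjusted p = 0.00295), while the second was lost in 4 of the 7 fits without 1 clone. Pmp22, a myelin and membrane protein, had −1.91, −2.08 and −1.75 against 0.80, −0.11, 0.80 and −0.56 (difference 2.14, limma adjusted p = 0.00191). Clone 1 was the highest, or level with the highest, KE + EpEX clone in each of these 5 genes, as it was in the fibroblast marker levels, while in Pmp22 clone 3 was level with it and above clone 2. The part of those levels in the calls was not tested.

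**Figure D3:**
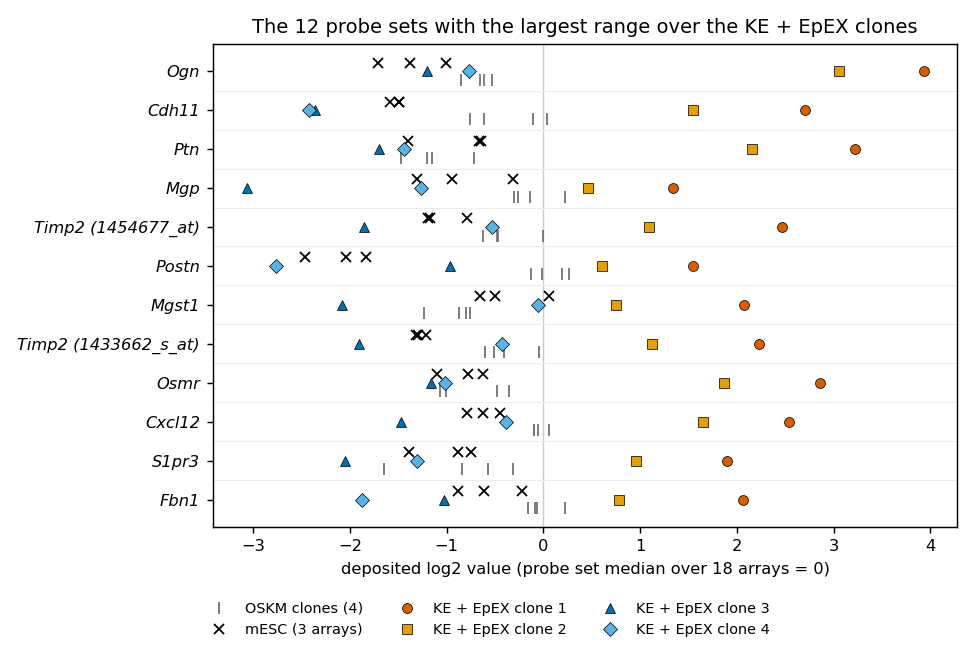
Log2 values (horizontal axis, relative to each probe set's median over 18 arrays) of the 12 probe sets with a symbol that had the largest range over the 4 KE + EpEX clones (rows), with crosses for mESC clones, numbered points for KE + EpEX clones and bars for OSKM clones. Clone 1 is the highest and clone 2 the next in each of the 12 rows, and both are above the mESC clones.

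Among probe sets with 1 symbol, the 12 largest ranges over the KE + EpEX clones were 3.93 to 5.13 log2 units. All 12 belonged to genes listed lower than MEFs, and 0 of them were called. Ogn (osteoglycin, a matrix proteoglycan) was at 3.93, 3.06, −1.20 and −0.77 in clones 1 to 4 and at −1.38, −1.71 and −1.01 in mESCs (difference 2.62, limma adjusted p = 0.0860). Cdh11, the cadherin of mesenchymal cells, was at 2.70, 1.55, −2.36 and −2.42 against −1.49, −1.49 and −1.59 (difference 1.39, limma adjusted p = 0.388). Clones 1 and 2 were above every mESC clone in all 12 probe sets, and clone 3 or clone 4 was below every mESC clone in 11. Mgp, an inhibitor of calcification, was at 1.34, 0.46, −3.07 and −1.27, and Postn (periostin, a matrix protein) at 1.55, 0.61, −0.97 and −2.77. The mESC clones differed by no more than 1 log2 unit in any of the 12. The mean of the 4 clones lay where no single clone was for genes such as Cdh11.

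**Figure D4:**
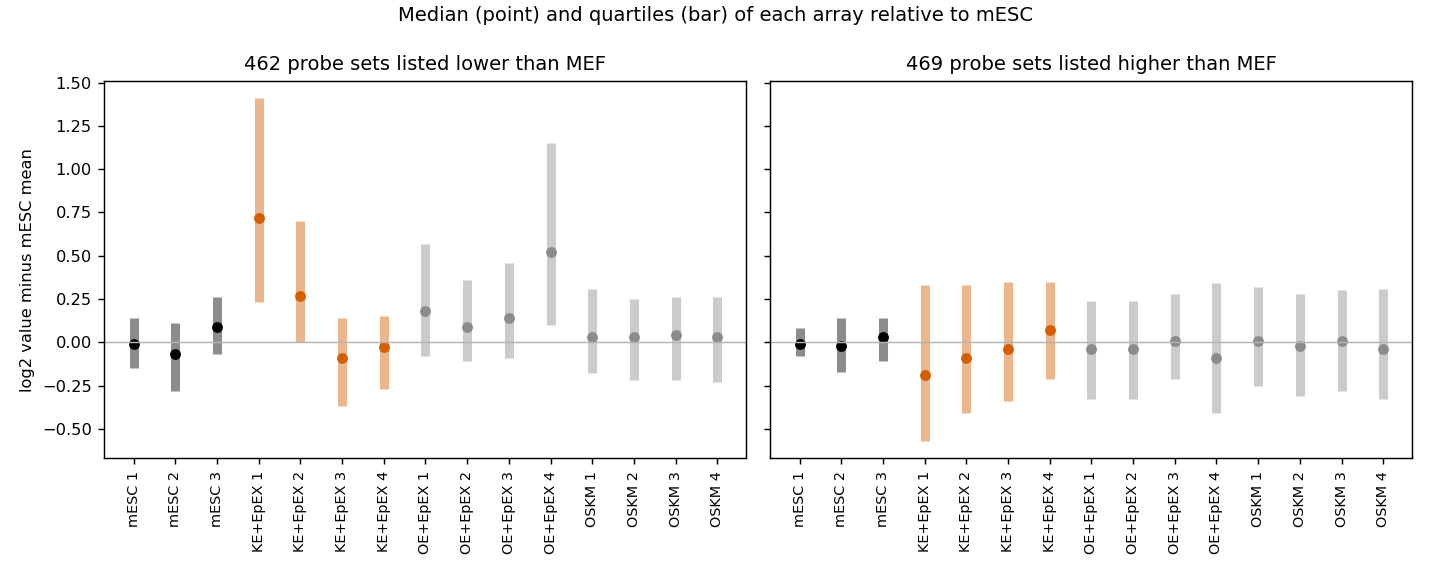
Median and quartiles (points and bars, log2 units) of each array minus the mESC mean, over the 462 named probe sets listed lower than MEFs and the 469 listed higher, with each mESC array set against the mean of the other mESC arrays. For probe sets listed lower, KE + EpEX clone 1 stands at 0.72, clone 2 at 0.27 and OE + EpEX clone 4 at 0.52, while KE + EpEX clones 3 and 4 are at −0.09 and −0.03.

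Over all 931 named probe sets 291 (31.3%) had a range of at least 1 log2 unit among the 4 KE + EpEX clones, as against 188 among the 4 OE + EpEX, 1 among the 4 OSKM and 6 among the 3 mESC clones. The disagreement was larger for genes listed lower than MEFs, 219 of 462 (47.4%), than for those listed higher, 72 of 469 (15.4%). Clone 1 was the highest clone in 204 of the 219, and clone 3 was the lowest in 120 and clone 4 in 97. An order noticed in the values, with clone 1 above clone 2 and clone 2 above both others, held in 187. Among the 72 listed higher, clones 1 and 2 were both above clones 3 and 4 in 14 and both below in 27. The root mean square difference over the 931 was 0.493 between clones 1 and 2 and 0.542 between clones 3 and 4, and 0.693 to 1.08 in the other 4 pairs, as against 0.209 to 0.325 between mESC clones and 0.185 to 0.236 between OSKM clones. Over all 45037 probe sets clones 1 and 2 were again the closest pair, at 0.243, but clones 3 and 4 were not close, at 0.417 beside 0.36 to 0.47 in the other 4 pairs.

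Compared with the mESC mean, the 462 probe sets listed lower than MEFs had a median of 0.72 in clone 1, with 163 at least 1 log2 unit above it, and of 0.27 in clone 2, with 72. Of all probe sets 3.49% and 2.87% lay that far above in these clones. In clones 3 and 4 the medians were −0.09 and −0.03, with 8 and 10 that far above, as were 2.53% and 1.98% of all probe sets. The 4 OSKM clones had medians of 0.03 to 0.04 and OE + EpEX clone 4 had 0.52, with 144 at least 1 above. For the 469 listed higher the medians of the KE + EpEX clones were −0.19, −0.09, −0.04 and 0.07.

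**Figure D5:**
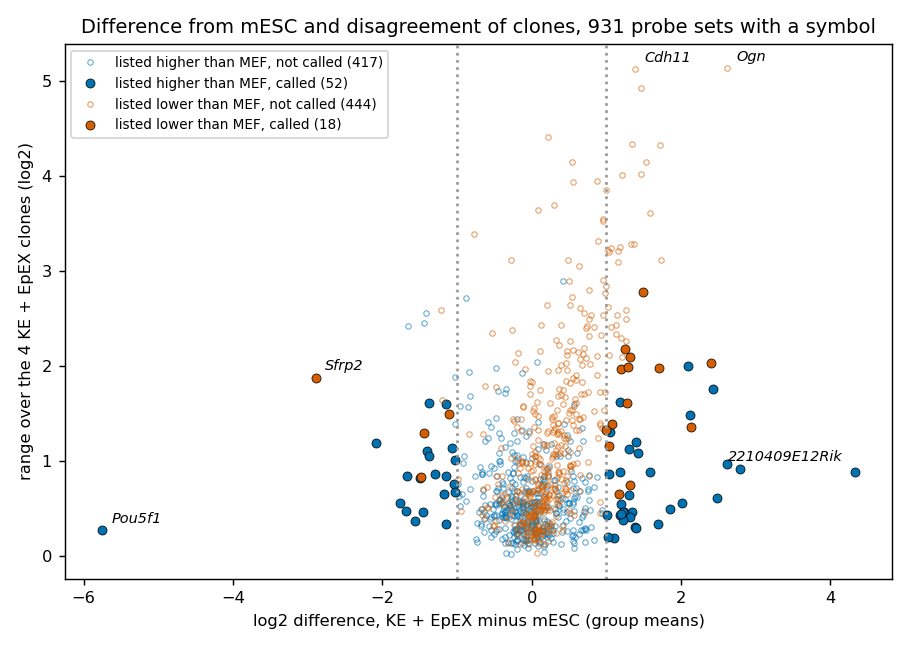
Mean log2 difference between KE + EpEX iPSCs and mESCs (horizontal axis) against the range over the 4 KE + EpEX clones (vertical axis, log2 units) for the 931 named probe sets, coloured by whether they were listed higher or lower than MEFs, with filled points for called ones. Called probe sets listed higher mostly have small ranges, and the largest ranges, up to 5.13, belong to probe sets listed lower that were not called.

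Of the 70 calls 48 held in all 7 fits that left out 1 clone, and 22 were lost in at least 1 of them, most often without KE + EpEX clone 2 (16), clone 1 (15) or mESC clone 3 (15) and least often without KE + EpEX clone 4 (2). Of the 32 higher and 20 lower calls listed higher than MEFs 26 and 15 held in all 7, and of the 14 higher and 4 lower calls listed lower than MEFs 5 and 2 did. Quantile normalization, which gives all arrays 1 distribution although the SD over an array was 0.393 to 0.422 in mESCs and 0.251 to 0.309 in KE + EpEX clones, kept 25 of the 70. Pou5f1, Zfp42, Triml1, Sfrp2, Lin28a, Stk31, Mep1b, Nlrp4f, Cldn4 and Dppa3 were among those kept, and Rhox5, Col6a3, Col5a2, Serpinf1, Vgll3, Pmp22 and Pdgfra were among those lost. Among those kept, the difference moved to −1.06 for Zfp42, 1.00 for Nlrp4f, 1.73 for Mep1b and 2.63 for 2210409E12Rik. With only the KE + EpEX and mESC clones in the limma fit 61 of the 70 were kept. The methods' t-test kept 63 of the 70 without adjustment and 31 after Benjamini-Hochberg adjustment, under which it called 73 named probe sets in all. With adjustment Pou5f1, Zfp42, Triml1, Sfrp2, Stk31, Mep1b, Nlrp4f and Rhox5 were among those kept, and Lin28a, Dppa3, Cldn4, Cidea, Crxos1 and Col6a3 among those lost (adjusted p-values from 0.0647 to 0.114).

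OSKM and OE + EpEX clones were compared with the same 3 mESC clones, so their differences share those controls and are given only side by side. For Pou5f1 the difference from mESCs was −5.75 in KE + EpEX, −5.52 in OSKM and −5.22 in OE + EpEX iPSCs. For Zfp42 it was −1.68, −1.96 and −1.78, for 2210409E12Rik 4.33, 3.96 and 4.10, and for Rhox5 1.22, 1.48 and 1.35. For Dppa3 it was 1.42, −0.24 and 0.85, for Cidea 2.12, 0.71 and 1.19, and for Lin28a −1.37, −0.57 and −0.83.

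Set directly against the 4 OSKM clones, KE + EpEX iPSCs had 0 called probe sets with a symbol by limma, and 168 of the 931 had an unadjusted p under 0.05. Over all probe sets 1 was called (0.00222%), which has no symbol, and 5383 had an unadjusted p under 0.05. Without KE + EpEX clone 3 the counts were 23 and 247. Dppa3 was 1.66 higher than in OSKM clones (limma adjusted p = 0.132), Cidea 1.41 higher (limma adjusted p = 0.168), Nr5a2 0.57 higher (limma adjusted p = 0.133) and Lin28a differed by −0.79 (limma adjusted p = 0.190), so that none of the 4 passed.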

How the data were processed

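Each of the 18 RNA samples was measured on its own Affymetrix mouse expression array. The authors used GeneSpring GX. The log2 values they deposited are centred on the median of the 18 arrays for each probe set. The submitters' processing notes name MAS5 and RMA, and the normalization between arrays is not given in the sources used here. The authors also deposited lists of probe sets, from which symbols and list membership were taken. Their fold changes against the MEF mean were not used.

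Groups were taken from the sample labels. After 64 control probe sets were left out, 45037 probe sets were fitted with limma 3.58.1 in R 4.3.3 (lmFit and eBayes, 1 mean per group) on the 15 arrays other than MEFs, with Benjamini-Hochberg adjustment over all 45037 within each comparison. The limits were an adjusted p of 0.05 and a log2 difference of 1. With values centred per probe set no filter on dim probe sets was possible, and the 3 or 4 arrays per group limit the precision. No 2 arrays held identical values. Python 3.11.15, numpy 2.4.6, pandas 2.3.3 and matplotlib 3.10.9 were used for the other steps. The fit was also tested on simulated data with known differences.

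The genes to be named were those of the lists given in the text that have a symbol (by the probe set with the largest spread), the 15 highest and 15 lowest called probe sets with a symbol, and the 12 with the largest range over the KE + EpEX clones. Probe sets with several symbols were counted and not named. The members and lists were chosen with earlier results of these data known. Of the other lists, the 2-cell-like list had 0 of 18 genes with a symbol. The 4 imprinted genes, the 1 germ layer gene (3 probe sets) and the 3 genes of the sex chromosomes (6 probe sets) had 0 calls, with median differences of 0.42, 0.61 and 0.10. Promoters and positions were read from RefSeq tables of GRCm38.p6. Results for some genes are not reported here. Replicate numbers in the labels did not pair the samples. Alternatives were other thresholds, other samples in the fit, quantile or median scaling, array weights, robust eBayes, the replicate block, the methods' t-test and leaving out each clone.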

Additional observations from a re-analysis of the deposited data

Results flagged for a closer look

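For each of 128 probe sets the KE + EpEX clone furthest from the other 3 was examined, and in 9 its gap to the nearest clone exceeded the limit of Dixon's test at 95%, where chance gives 6.4 (1 in 20). Clone 3 was the distant one in 4, with Nanog at −0.15, Nr0b1 at −0.66, Fbxo15 at −0.02 and Sycp3 at 1.31. Clone 4 was in the other 5, with Cdh1 at −0.42, Crxos1 at −0.51, Stk31 at −0.31, Sox2 at 0.48 and Zic5 at 0.50. Clones 1 and 2 were the distant one in 0 of them. Over all 931 probe sets with a symbol the limit was exceeded in 44, where chance gives 46.55, with clone 1 the distant one in 9, clone 2 in 3, clone 3 in 17 and clone 4 in 15. Nanog and Fbxo15 are genes of the naive state and were higher in the other 3 clones than in any mESC clone, while Sycp3 and Nr0b1 left the range of the other KE + EpEX clones upwards and downwards. No explanation was tested.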

How the results depend on the processing

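Between KE + EpEX iPSCs and mESCs 1754 probe sets were called, and 4288 at 1.5-fold, 7503 without a fold limit, 643 after quantile normalization and 9288 by the methods' t-test without adjustment. Leaving out 1 clone gave 1557 to 2195. Of those with a symbol 70 were called, and 144, 212, 25 and 234 under the same settings, 135 with array weights and 55 to 111 without 1 clone (89 without KE + EpEX clone 3, 111 without clone 4). Against OSKM clones the count of 1 became 0 at an adjusted p of 0.01, 0 with all 18 arrays and 0 with the replicate block, 13 with only these groups in the fit, 237 after quantile normalization, 346 with array weights, 4979 and 2 by the methods' t-test without and with adjustment, and 0 to 247 without 1 clone. With a symbol the count of 0 became 17, 41 and 121 after quantile normalization, with array weights and by the unadjusted t-test, and 0 to 23 without 1 clone. Both highest values were those without KE + EpEX clone 3. The array weights, which set how much each array counts, were 0.365 to 1.99 in KE + EpEX clones. Apart from thresholds and omitted clones, the cause was not tested.

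The replicate block gave 1700 probe sets against mESCs and 67 with a symbol (41 higher, 26 lower). Samples of the same number had correlations of their deviations of −0.22, −0.02 and 0.01, so they share only a number. Of the 128 probe sets followed under 16 alternatives, 1948 values kept their direction and side of the limits, 35 gained a call, 65 lost one and 0 were reversed. The values do not show signal over background, so a gene at a low level cannot be told from an absent one.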

Other observations

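Among probe sets without a symbol, 1453444_at was at −4.76, −4.86 and −4.88 in the mESC clones and at 0.62, 0.25, −0.61 and 0.46 in KE + EpEX clones 1 to 4 (difference 5.01, limma adjusted p = 3.16e-09). It was also at −5.15 to −4.78 in MEFs, and at −0.02 to 0.53 in OSKM and 0.02 to 0.47 in OE + EpEX clones, so that every iPSC group lay above both mESCs and MEFs. The probe set 1451867_x_at was at 5.16, 4.68 and 5.26 in mESCs and at −0.01, −0.17, −0.27 and −0.40 in KE + EpEX clones (difference −5.25, limma adjusted p = 3.38e-11), at 0.93 to 3.52 in MEFs, and at −0.38 to 0.09 in OSKM and −0.28 to 0.25 in OE + EpEX clones. The tables used here do not pair them with a gene.

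Tfap2c, a factor of trophoblast and germ cells, was the only gene of the germ layer and trophoblast list with a symbol. Its 3 probe sets had differences of 0.23 to 0.70, and the largest was at 0.40, 0.36, 0.08 and 0.56 in KE + EpEX clones against −0.38, −0.33 and −0.34 in mESCs (limma adjusted p = 0.00164), under the 2-fold limit.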
